A study of Mus musculus with 140 samples.

Results

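Whole kidneys of mice taken 4 h after a sham operation were set against whole kidneys of healthy mice, to see what the operation itself, without sepsis, did to kidney RNA. The series followed sepsis in kidney vessels of 28 mice and holds 140 libraries, of which 28 are from whole kidney that was not microdissected. The 8 libraries compared were chosen by their labels alone and come from 4 mice sham-operated at 4 h and 4 healthy control mice at 0 h. All mice were male, wild-type and of the strain C57BL6/OlaHsd. The other whole-kidney groups, each of 4 mice, were sham-operated mice at 24 h and 72 h and mice at 4, 24 and 72 h after cecal ligation and puncture (CLP), the operation that causes the sepsis. The ages of the mice and the steps of the sham operation (anaesthesia, drugs, incision) are not given in the sources used here. Those steps, the time of day and the 4 h that passed cannot be told apart in this design.

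RNA was read near its 3′ end (Lexogen QuantSeq), so counts of different genes are not compared with each other. The sham libraries held 8.11 to 10.9 M counts (M for mega) with 18983 to 19638 detected genes, and the healthy libraries 7.65 to 12.3 M counts with 18272 to 20474 genes. Mitochondrial transcripts made up 12.3 to 13.7% of counts in sham and 13.2 to 14.3% in healthy kidneys. The kidney identity of the libraries was clear: the summed level of 25 proximal tubule markers was 41938 to 47775 CPM (counts per M, scaled by the trimmed mean of M-values, TMM) in sham and 44674 to 46089 CPM in healthy mice, and none of them was at 0. Of the adrenal markers in the table, 5 of 7 had no count in any of the 8 libraries, Cyp11a1 and Cyp21a1 of steroid synthesis and Th of the medulla among them. Adipocyte markers summed to 441 to 762 CPM in sham and 72.3 to 907 CPM in healthy kidneys.

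Glucocorticoids (corticosterone in mice) are released by the adrenal cortex under stress and bind the glucocorticoid receptor, which then enters the nucleus and binds DNA. Its best known binding site is a palindrome, with mirrored arms 3 bases apart. Textbook target genes of the receptor include brakes on inflammation (Tsc22d3, Dusp1, Nfkbia), the receptor's own feedback inhibitor Fkbp5, metallothioneins, the clock gene Per1 and, in the distal nephron, the kinase Sgk1 that raises sodium uptake. A list of 18 such targets was used here. It was written with earlier results of these data known. Its direction, its number of called members and its place among the gene lists are therefore not independent evidence.

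Among the 38 gene lists examined, this one had the most members that moved 4 h after sham surgery. Of its 18 members 15 rose by edgeR's quasi-likelihood test, none was called lower by it, and the median log2 fold change (sham over healthy) was 1.702, against -0.008 over all 14936 genes tested. Of all genes tested 116 (0.777%) rose and 24 (0.161%) fell, 140 (0.937%) in all, at an adjusted p under 0.05. The values of the 4 sham mice and the 4 healthy mice did not overlap for 15 members of the list, and for 1013 genes (6.78%) of the whole table. The number of genes called rested on single mice: it fell to 73 without sham replicate 1, 59 without sham replicate 4 and 67 without healthy replicate 1. The list lost less, with 11 to 16 members called when any 1 library was left out.

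The core of the receptor's palindrome, GNACA and TGTNC with any 3 bases between them (N is any base, and the core reads the same on both strands), was looked for from 250 bases before to 50 bases after the annotated start of each gene in RefSeq's promoters of build GRCm38.p6. It was present at 145 of 27025 genes (0.537%) and at 52 of 10969 tested genes (0.474%) with an entry. It was present at 4 of 98 genes that rose (4.08%), at 0 of 16 that fell, and at 4 of the 16 listed targets that had an entry (25%), Fam107a, Map3k6, Mt1 and Sgk1. The longer form, AGAACA and TGTTCT with any 3 bases between them, holds the core and was found at 3 genes of the whole table (0.0111%), and 2 of them, Acnat2 and Sgk1, were among the tested genes. The promoters below are those of the 4 genes that rose and held the core, with Sgk1 for its longer form. Each is the 250 bases before the start, 5′ to 3′ on the gene's strand, with the core match in capitals. A match describes these letters and does not show a bound receptor.

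Acnat2, chr4:49408152-49408401, minus strand: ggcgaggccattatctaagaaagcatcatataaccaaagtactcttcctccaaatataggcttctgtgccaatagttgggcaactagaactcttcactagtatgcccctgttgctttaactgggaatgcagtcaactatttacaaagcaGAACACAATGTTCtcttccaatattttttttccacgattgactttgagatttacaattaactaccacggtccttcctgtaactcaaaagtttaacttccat
Map3k6, chr4:133240568-133240817, plus strand: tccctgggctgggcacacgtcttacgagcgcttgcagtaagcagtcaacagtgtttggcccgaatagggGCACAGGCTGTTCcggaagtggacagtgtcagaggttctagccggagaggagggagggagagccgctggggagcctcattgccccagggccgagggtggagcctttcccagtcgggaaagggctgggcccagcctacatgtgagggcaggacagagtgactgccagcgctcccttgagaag
Mt1, chr8:94178839-94179088, plus strand: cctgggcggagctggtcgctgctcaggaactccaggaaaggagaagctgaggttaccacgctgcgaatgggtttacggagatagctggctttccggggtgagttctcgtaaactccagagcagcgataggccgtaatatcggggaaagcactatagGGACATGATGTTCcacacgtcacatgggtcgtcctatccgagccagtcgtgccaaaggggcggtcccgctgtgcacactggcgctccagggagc
Slc10a6, chr5:103629404-103629653, minus strand: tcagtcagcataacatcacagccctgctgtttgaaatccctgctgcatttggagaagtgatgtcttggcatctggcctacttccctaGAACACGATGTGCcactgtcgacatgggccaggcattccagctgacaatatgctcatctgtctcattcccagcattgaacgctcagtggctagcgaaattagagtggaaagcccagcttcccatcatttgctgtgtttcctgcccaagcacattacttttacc
Sgk1, chr10:21993640-21993889, plus strand: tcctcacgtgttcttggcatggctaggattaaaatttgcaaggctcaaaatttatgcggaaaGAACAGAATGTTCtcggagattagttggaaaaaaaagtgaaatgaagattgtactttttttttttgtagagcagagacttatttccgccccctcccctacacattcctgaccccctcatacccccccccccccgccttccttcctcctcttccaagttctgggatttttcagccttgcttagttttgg

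**Figure D1:**
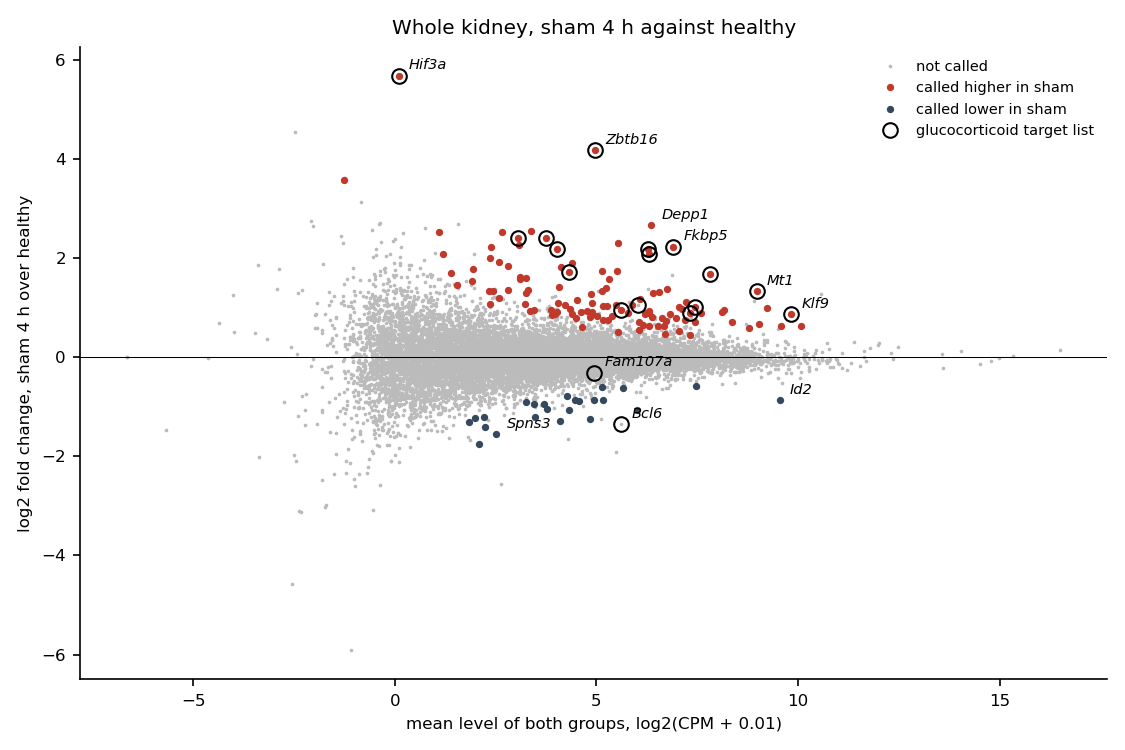
Each point is 1 of the 14936 genes tested, with the mean level of both groups on the x axis as log2(CPM + 0.01) and the log2 fold change of sham 4 h over healthy on the y axis. Red points rose (116), dark blue points fell (24), and rings mark the 18 listed glucocorticoid targets, 15 of which are red.

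Among the brakes and feedback genes, Fkbp5 (chr17:28399094-28517527, build GRCm38), a co-chaperone of Hsp90 that lowers the receptor's affinity for hormone, had 220, 166, 141 and 266 CPM in sham replicates 1 to 4, against 42.2, 49.1, 31 and 46.5 CPM in healthy replicates 1 to 4. Every sham mouse was well above every healthy mouse. The log2 fold change between the groups was 2.23 ± 0.242 (SE, adjusted p = 3.95e-06). Tsc22d3 encodes GILZ, a leucine zipper protein that restrains NF-kB and AP-1. It had 159.8, 105, 70 and 172 CPM in sham mice and 29.3, 34.7, 23.7 and 32.1 CPM in healthy mice (log2 fold change 2.08 ± 0.216, adjusted p = 1.02e-06). Nfkbia, the cytoplasmic inhibitor of NF-kB that is also a target of NF-kB itself, had 243, 174, 201 and 316 CPM in sham mice, against 88.8, 132, 114 and 127 CPM in healthy mice. The groups were apart and the log2 fold change was 1.01 ± 0.159 (adjusted p = 0.000332). Errfi1, a feedback inhibitor of the EGF receptor, rose by 0.90 (adjusted p = 0.00117). Dusp1, a phosphatase that switches off MAP kinases, averaged 64.4 ± 18.7 CPM in sham and 33.3 ± 3.15 CPM in healthy mice (SD, n = 4 each; log2 fold change 0.95, adjusted p = 0.0229). Sham replicate 4 was the highest at 91.9 CPM, and without it the adjusted p of Dusp1 was 0.207. Its call was also lost without any 1 of the 4 healthy mice.

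Among transcription factors, Zbtb16 (chr9:48654297-48836222), the zinc finger protein PLZF, had 67.3, 40, 50.2 and 77.8 CPM in sham mice and 3.2, 6.12, 2.41 and 1.59 CPM in healthy mice. This was the highest log2 fold change of the genes averaging at least 5 CPM in either group, 4.18 ± 0.488 (adjusted p = 3.71e-05), and the lowest sham mouse was far above the highest healthy mouse. Hif3a, a member of the hypoxia-inducible factor family, had 82 counts in the 4 sham libraries together and 1 count in the 4 healthy libraries. The ratio was 83.4 with a 95% counting interval of 14.6 to 3340, which covers counting error only (adjusted p = 7.8e-05). Klf9, a Krüppel-like factor, had 1362, 949.6, 1102 and 1308 CPM in sham and 625, 645, 625 and 674 CPM in healthy mice. The healthy mice lay close together and all sham mice were above them (log2 fold change 0.88 ± 0.152, adjusted p = 0.00133). Cebpd, a factor also induced by interleukin-6, had 28.2, 22.8, 28.9 and 43 CPM in sham and 11.3, 7.99, 7.62 and 10.6 CPM in healthy mice (1.72 ± 0.202, adjusted p = 4.47e-06). Per1, a repressor of the circadian clock, had 30.5, 17.7, 17.2 and 41.2 CPM in sham and 7.35, 8.52, 4.45 and 3.6 CPM in healthy mice (2.18 ± 0.323, adjusted p = 0.000299). For both Zbtb16 and Per1, sham replicates 1 and 4 were the upper pair.

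The metallothioneins, small proteins that bind zinc and copper, rose together. Mt1 had 778, 719.5, 538 and 845 CPM in sham mice, against 239, 371, 261 and 272 CPM in healthy mice (1.33 ± 0.261, adjusted p = 0.00766, or 0.0521 without healthy replicate 1). Mt2 had 344, 319.9, 266 and 437 CPM in sham mice, against 89.2, 119, 105 and 113 CPM in healthy mice (1.69 ± 0.251, adjusted p = 0.000349). Neither gene's groups overlapped. Of the other 12 members tested of a list on metallothioneins, zinc and iron, none was called.

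The remaining genes of the list that rose are a kinase and regulators of growth. Map3k6, a kinase of the MAP kinase cascade, had 16.3, 10.9, 11.3 and 17.1 CPM in sham and 0.948, 3.73, 2.94 and 2.76 CPM in healthy mice (2.41 ± 0.398, adjusted p = 0.00116). Ddit4 (REDD1), an inhibitor of mTORC1, had 215, 33.6, 32.5 and 230.1 CPM in sham and 34.3, 18.4, 21.1 and 38.2 CPM in healthy mice. Sham replicates 1 and 4 alone stood out, and the other sham mice lay within the healthy range. Arrdc2, of the arrestin-domain family, had 36.6, 8.11, 5.08 and 40.5 CPM in sham and 2.37, 3.59, 5.43 and 5.3 CPM in healthy mice. Here too sham replicates 1 and 4 were far above the rest, replicate 2 was slightly above the healthy mice and replicate 3 was within their range. Both genes passed (Ddit4 adjusted p = 0.0321, Arrdc2 adjusted p = 0.0386). Without sham replicate 4 the adjusted p was 0.188 for Ddit4 and 0.216 for Arrdc2, and both calls were also lost without sham replicate 1 or any 1 healthy mouse.

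The 3 listed targets that were not called by edgeR with all 28 libraries were Sgk1, Bcl6 and Fam107a. Sgk1 had 114, 56.8, 98.6 and 82.8 CPM in sham mice and 55.2, 41.3, 31.8 and 41.9 CPM in healthy mice. The groups did not overlap, but the log2 fold change of 1.05 ± 0.268 had an adjusted p of 0.059, and 0.0195 without sham replicate 2. Bcl6, a transcriptional repressor, lay the other way, with 32.2, 19.1, 24.4 and 34.4 CPM in sham and 55.6, 70.4, 47.4 and 108 CPM in healthy mice (-1.35 ± 0.408, adjusted p = 0.155). The groups did not overlap, and Bcl6 was called lower with DESeq2, with the 8 libraries alone and with the 12 libraries of healthy, sham 4 h and CLP 4 h mice (adjusted p down to 0.0078). Fam107a, an actin-binding stress-response gene, had 28.4, 31.9, 20.4 and 28.4 CPM in sham and 34.9, 35, 34.9 and 30.7 CPM in healthy mice, with overlap (-0.31, adjusted p = 0.704).

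**Figure D2:**
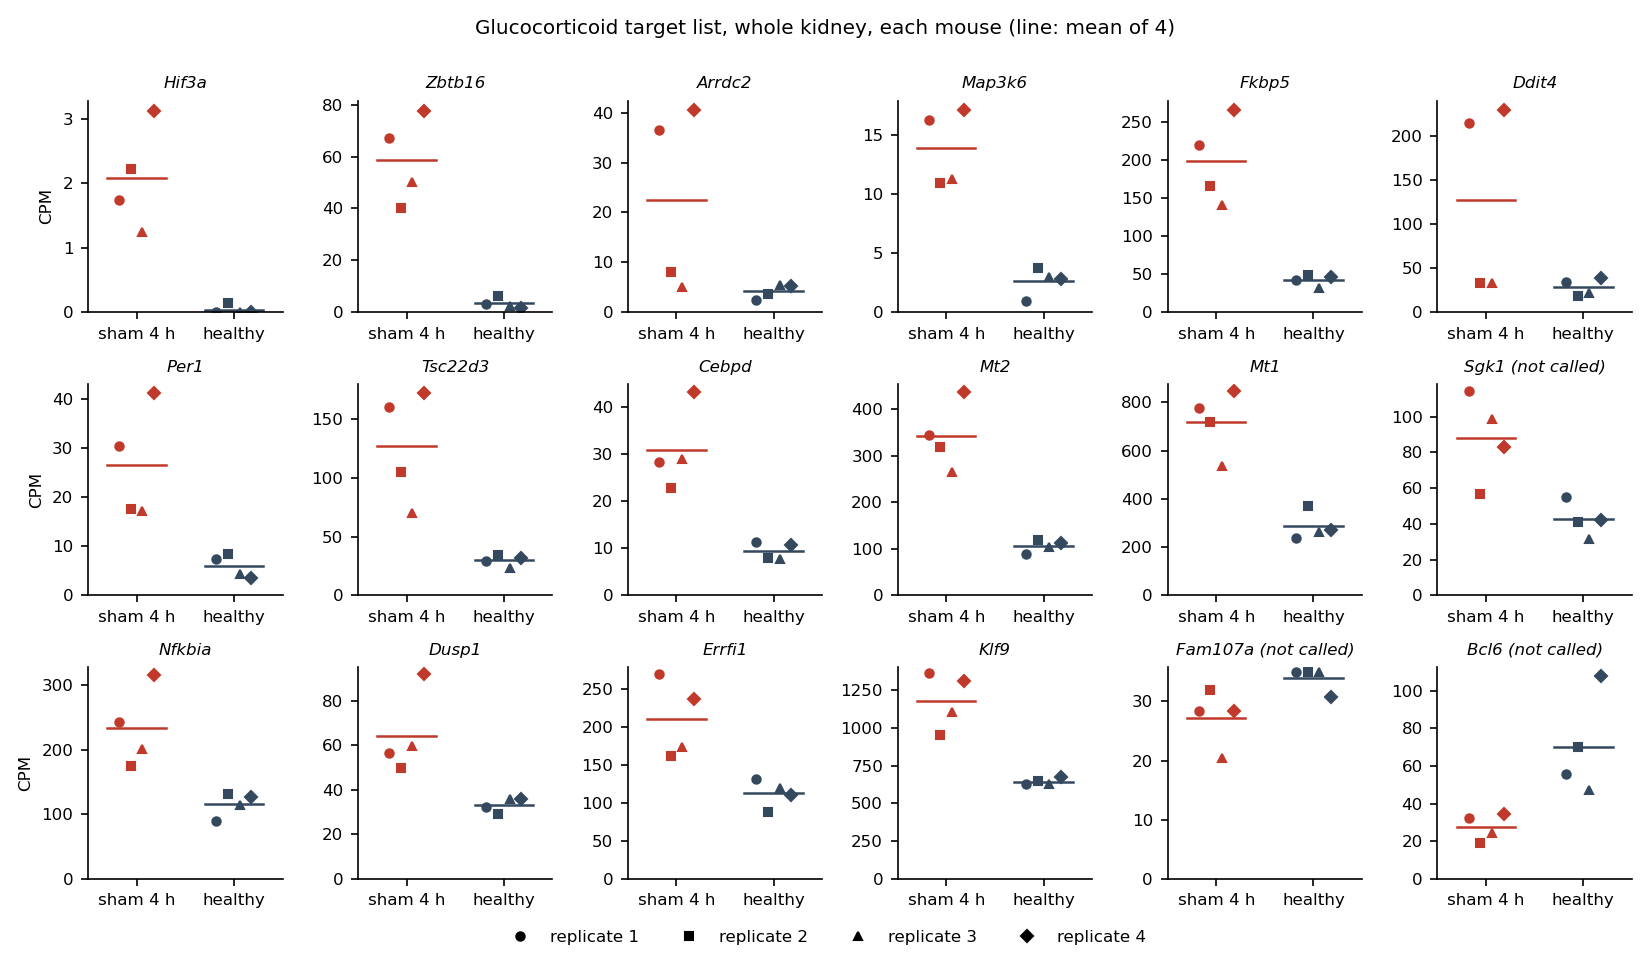
CPM of each mouse (y axis, linear, from 0) in sham 4 h (red, left) and healthy kidneys (dark blue, right) for the 18 listed glucocorticoid targets, with a line at the mean of 4 mice and symbols for the replicate number. The groups are apart in most panels, while for Ddit4 and Arrdc2 sham replicates 1 and 4 stand far above all other mice.

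Sham replicates 1 and 4 were both above replicates 2 and 3 for 74 of the 116 genes that rose (63.8%) and both below for 4 (3.45%). For the 24 genes that fell they were both above for 2 (8.33%) and both below for 10 (41.7%). Over the 10356 tested genes with a sham mean of at least 5 CPM the shares were 17.9% and 17.9%. Among the called genes this pair thus tended to lie farther from the healthy mice in both directions. Only this pairing, picked with the values seen, was counted. The genes were called on the values of these same mice, so the shares are not independent evidence. The labels hold nothing that distinguishes these mice, and what moved with the pair was not tested.

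Outside the glucocorticoid list, several enzymes and a transporter rose. Sult1a1, a sulfotransferase that conjugates phenols, had 41.7, 31.6, 27.5 and 31.7 CPM in sham and 7.35, 11.6, 8.23 and 8.48 CPM in healthy mice, with an adjusted p of 1.02e-06 (1.899 ± 0.202). Upp2, a uridine phosphorylase, had 57.4, 48.7, 39 and 93 CPM in sham and 17.8, 17, 22.2 and 22.2 CPM in healthy mice (1.59 ± 0.206, adjusted p = 3.07e-05). Glul, glutamine synthetase, averaged 794 ± 143 CPM in sham and 401 ± 69.8 CPM in healthy mice (SD, n = 4 each; 0.99 ± 0.136, adjusted p = 6.12e-05). All 3 genes had groups that did not overlap, which the rule that named them required. Acnat2, an acyl-CoA:amino acid N-acyltransferase whose promoter is printed above, averaged 93.2 ± 13.1 CPM in sham and 41.3 ± 15.4 CPM in healthy mice (SD, n = 4 each; 1.18, adjusted p = 0.00149). Slc10a6, a carrier of sulfated steroids, was low, with 4.02, 3.06, 2.35 and 5.09 CPM in sham and 0.83, 0.799, 0.755 and 0.106 CPM in healthy mice (2.53 ± 0.64, adjusted p = 0.0492). Acnat2 and Slc10a6 were named for the motif, after their values were seen, and Slc10a6 was not among the 49 genes called whichever library was left out.

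Other genes that rose act in signalling and growth control. Stim1, the calcium sensor of the endoplasmic reticulum, varied little among mice, with 40.4, 38.3, 40 and 41.3 CPM in sham and 17, 18.2, 18.3 and 21.7 CPM in healthy mice (1.09 ± 0.148, adjusted p = 5.36e-05). Hipk1, a nuclear kinase, rose by 0.79 on the log2 scale (adjusted p = 6.82e-05). Cdkn1a (p21), an inhibitor of cyclin-dependent kinases, had 119, 65, 30.9 and 92 CPM in sham and 15.7, 10.5, 16.5 and 18.8 CPM in healthy mice (2.31 ± 0.448, adjusted p = 0.00896). It and Trp53inp1 (1.04, adjusted p = 0.0229, sham and healthy overlapping) were the members of a list of 16 tested p53 targets that rose, and the median of that list was 0.05. The call of Trp53inp1 was lost without sham replicate 1 (adjusted p = 0.171), sham replicate 4 or healthy replicate 1, 2 or 3. Depp1, a gene induced by FoxO factors in fasting, had 279, 63.9, 45.4 and 175 CPM in sham and 14.3, 20, 33.9 and 19.9 CPM in healthy mice (2.67 ± 0.56, adjusted p = 0.0173). Its call was lost without sham replicate 1 (adjusted p = 0.0935), sham replicate 4 or healthy replicate 1, 2 or 4. Angptl7, a secreted angiopoietin-like protein, rose by 2.55 ± 0.434 (adjusted p = 0.00178), Nusap1, a spindle protein, by 1.92 (adjusted p = 0.00234) and Clca3a1, of the calcium-activated chloride channel regulator family, by 1.85 (adjusted p = 0.00209).

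Several unnamed or predicted genes that rose lie beside genes described here. Gm49839 (chr17:28457484-28461095, log2 fold change 2.52, adjusted p = 0.0102) lies inside the span of Fkbp5, and E230001N04Rik (chr17:28522720-28525398, 2.00, adjusted p = 0.0152) lies next to it. 4833411C07Rik (chr8:10899922-10903893, 2.27, adjusted p = 0.00722) lies near Irs2 (chr8:10984681-11008458), and Gm11827 (chr4:11122805-11126998, 2.23, adjusted p = 0.0142) near Trp53inp1 (chr4:11156431-11174379). Gm15889 (chr8:94377872-94380317, 1.40, adjusted p = 7.8e-05) is near Herpud1 (chr8:94386438-94395377), a gene of protein quality control in the endoplasmic reticulum that itself rose by 0.96 (adjusted p = 0.000113). Gm49839 is annotated on the strand of Fkbp5, while E230001N04Rik and 4833411C07Rik are on the strand opposite to Fkbp5 and Irs2. Whether such transcripts are separate or extensions of the neighbour was not tested. Exons of 37 of the 116 genes that rose and of 6 of the 24 that fell overlap a gene on the other strand, and the strand setting of the counting is not given in the sources used here. Reads of the partners cannot be told apart for these, among which are Cdkn1a, Sult1a1, Cebpd, Mt2, Dusp1, Irs2, Glul, Hipk1, Nusap1, Clca3a1, Dleu7, Cx3cr1, Npr3 and Clmp.

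Genes of insulin signalling, FoxO and glucose production also rose in part, with 3 of 17 tested members called and a list median of 0.37. Irs2, the insulin receptor substrate that FoxO factors induce in fasting, had 61.9, 98.3, 69.5 and 52.6 CPM in sham and 16.1, 18, 26.6 and 23.5 CPM in healthy mice (1.74, adjusted p = 0.0164). It was no longer called without sham replicate 2 or healthy replicate 1 or 2 (adjusted p up to 0.0866). Foxo3 itself averaged 103 ± 20.1 CPM in sham and 53.8 ± 8.63 CPM in healthy mice (SD, n = 4 each; 0.95, adjusted p = 0.00373). Igfbp1, a secreted binder of insulin-like growth factors, had 75.5, 40.1, 26.8 and 74.1 CPM in sham and 8.42, 16.4, 29.7 and 9.75 CPM in healthy mice. Its groups overlapped (1.74, adjusted p = 0.0157), which failed the test once sham replicate 1 or 4 or healthy replicate 1, 2 or 4 was left out (adjusted p up to 0.098). The enzymes of glucose production Pck1 and G6pc were not called by edgeR with all 28 libraries. Pck1 had 2057, 1992, 2103 and 2483 CPM in sham and 1027, 1179, 652 and 680.2 CPM in healthy mice. The groups were apart, but the adjusted p was 0.565 when all 28 whole-kidney libraries shared 1 estimate of spread, and 0.00182 with the 8 libraries alone. G6pc had 866, 607, 332 and 860 CPM in sham and 306, 282, 327 and 292 CPM in healthy mice (1.14, adjusted p = 0.0931). It was called with DESeq2 (adjusted p = 0.00747), and by edgeR without sham replicate 3 (adjusted p = 0.0169), which lay near the healthy mice.

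**Figure D3:**
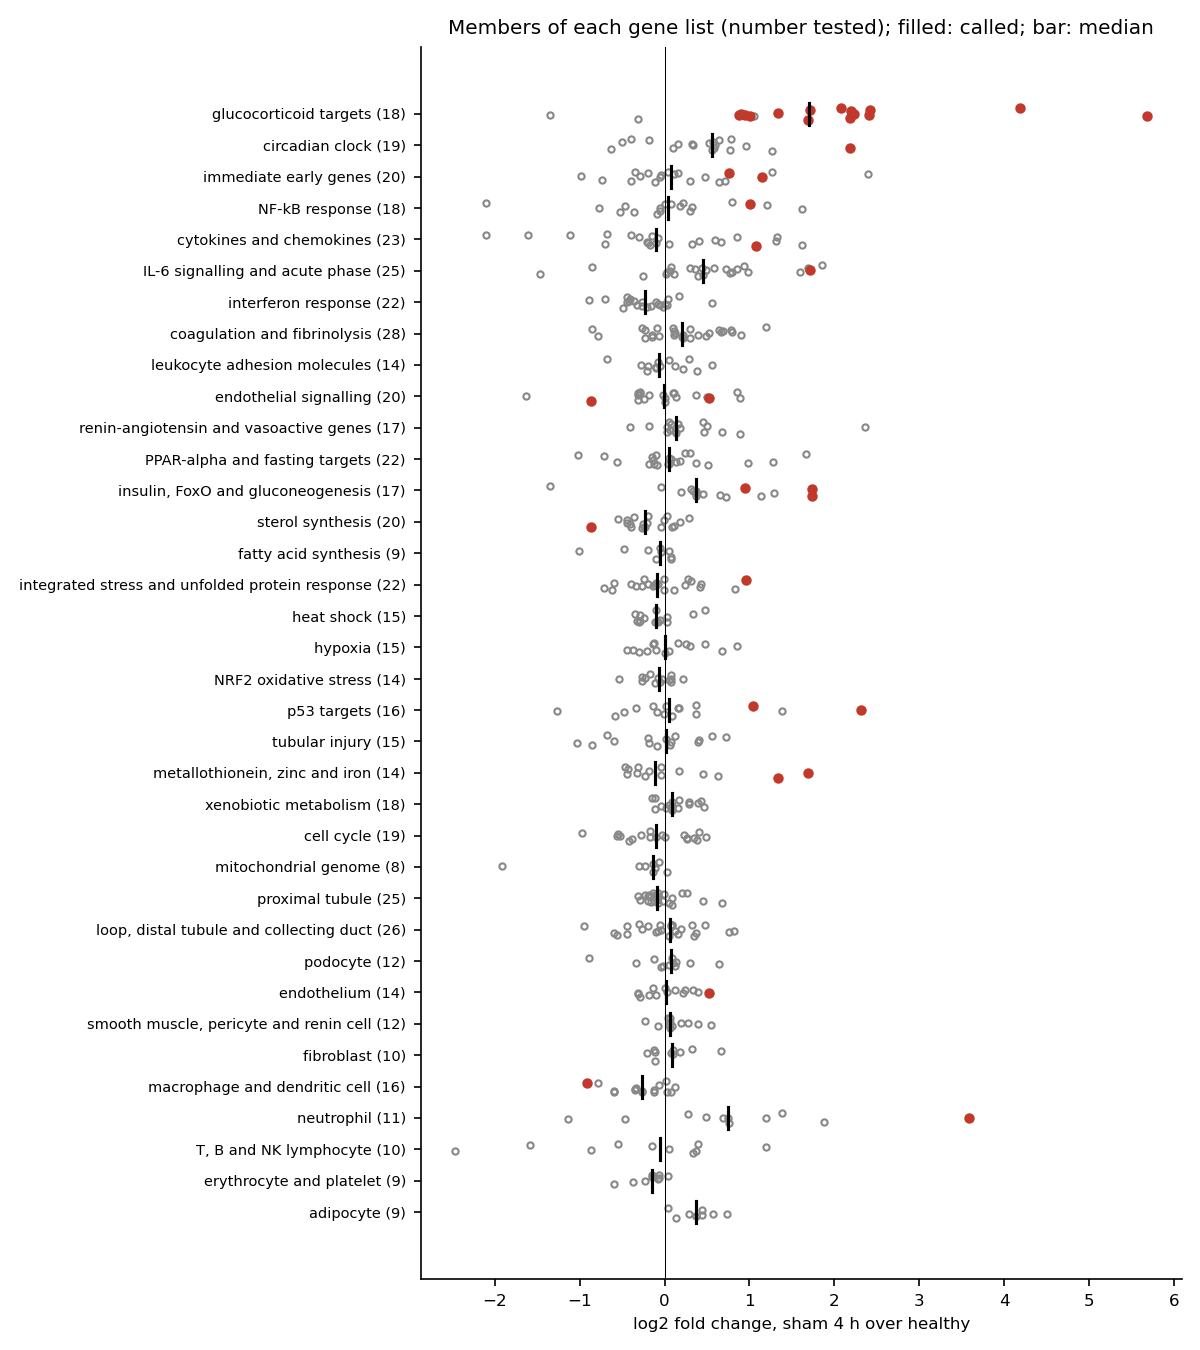
Log2 fold change of sham 4 h over healthy (x axis) for the tested members of each gene list (rows, number tested in brackets), with filled red points for members called in either direction and a bar at each list's median. The glucocorticoid list stands to the right with 15 called members and a median of 1.702, and no other list shown has more than 3 called members.

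The NF-kB, cytokine, interleukin-6, immediate early and clock lists had 1 or 2 called members each, beside 0.937% of all genes tested. The interferon response and leukocyte adhesion lists had none. Nfkbia, Cebpd and Per1, called in the lists below, are also listed glucocorticoid targets. The NF-kB list had 1 of 18 tested members called, Nfkbia, with a median of 0.04. Of 23 cytokines and chemokines only Il33, an alarmin of the interleukin-1 family, was called, with 11.5, 10.4, 13.6 and 15.1 CPM in sham and 5.22, 7.99, 5.43 and 5.51 CPM in healthy mice (1.08, adjusted p = 0.0255). Without sham replicate 1, 3 or 4 or healthy replicate 1, 3 or 4 it was not called (adjusted p up to 0.146). The interleukin-6 list had 1 of 25 called, Cebpd, with a median of 0.46 and 22 members above 0. Immediate early genes had 2 of 20 called, Fosl2 (1.15, adjusted p = 0.00332) and Klf2, a shear-responsive endothelial factor (0.76, adjusted p = 0.0142). The adjusted p was 0.0513 for Fosl2 and 0.136 for Klf2 without sham replicate 4, and Klf2 was also lost without healthy replicate 4. The classic immediate early gene Fos averaged 1.16 ± 0.813 CPM in sham and 1.41 ± 0.623 CPM in healthy mice (SD, n = 4 each; adjusted p = 0.978). The clock list had 1 of 19 called, Per1, with a median of 0.55 and 15 members above 0. Nr1d2 (0.58, adjusted p = 0.141) and Rora (0.55, adjusted p = 0.132), nuclear receptors of the clock, were higher in all sham mice than in all healthy mice without being called.

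Another 13 response lists had no called member by edgeR: interferon response, coagulation and fibrinolysis, leukocyte adhesion, renin-angiotensin and vasoactive genes, PPAR-alpha and fasting targets, fatty acid synthesis, heat shock, hypoxia, NRF2, tubular injury, xenobiotic metabolism, cell cycle and the mitochondrial genome. An unadjusted p under 0.05 was reached by 20 of their 216 tested members, against 1364 of all 14936 genes tested. By DESeq2 2 members passed, both of the coagulation list. Of all genes tested 0.937% were called by edgeR, so lists of this size can lack a called member without being unlike other genes. The tubular injury marker Lcn2 averaged 4.48 ± 0.618 CPM in sham and 3.49 ± 2.23 CPM in healthy mice (adjusted p = 0.969), and Havcr1 (KIM-1) 0.926 ± 0.237 CPM in sham and 1.46 ± 1.18 CPM in healthy mice (adjusted p = 0.959; SD, n = 4 each). Both differences were smaller than the SD of the healthy mice, though larger than that of the sham mice.

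Fewer genes fell, among them receptors of chemokines and a product of endothelium. Ackr3 (chr1:90203980-90216751), a scavenger receptor for the chemokine CXCL12, had the smallest adjusted p of these, with 18.2, 19.4, 15.2 and 15 CPM in sham mice and 55.8, 40.6, 28.1 and 36.8 CPM in healthy mice (-1.25 ± 0.179, adjusted p = 9.02e-05). Esm1, a proteoglycan of activated endothelium, had 15.6, 24.8, 27.6 and 18.8 CPM in sham mice and averaged 39.6 ± 5.65 CPM in healthy mice (SD, n = 4; -0.87, adjusted p = 0.0169). It was not called without sham replicate 1 or 4 or healthy replicate 3 (adjusted p up to 0.103). Flt1, a VEGF receptor of endothelium, moved the other way by 0.53 (adjusted p = 0.0238) and was the 1 called member of 14 tested endothelial markers. It was not called without sham replicate 1, 2 or 4 or healthy replicate 1 or 3 (adjusted p up to 0.175). Cx3cr1, the fractalkine receptor of macrophages, had 5.32, 8.11, 6.94 and 6.16 CPM in sham mice and 13.6, 17.2, 8.68 and 10.7 CPM in healthy mice (-0.91 ± 0.2, adjusted p = 0.015). It was not called without sham replicate 1 or 4 or healthy replicate 1 or 2 (adjusted p up to 0.108).

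Cx3cr1 was the 1 called member of 16 macrophage and dendritic cell markers, whose median was -0.27 and of which 4 were above 0. The 16 markers summed to 441 to 570.1 CPM in sham and 563 to 731 CPM in healthy mice, and none was at 0. In whole tissue, fewer cells of a type and less RNA per cell cannot be told apart. Of 11 tested neutrophil markers only Il1r2, a decoy receptor of interleukin-1, was called. It had 31 counts in the 4 sham libraries and 2 in the 4 healthy libraries, a ratio of 15.8 with a 95% counting interval of 4.01 to 136 (adjusted p = 0.0419), with overlap between groups. Its call was lost without sham replicate 1 or 4 or any 1 healthy mouse (adjusted p up to 0.361). The 14 neutrophil markers in the table summed to 10.7 to 28.1 CPM in sham and 7.34 to 22.2 CPM in healthy mice, none of them at 0 in all 8 libraries. No marker of proximal tubule, loop and distal nephron, podocyte, smooth muscle, fibroblast, lymphocyte, erythrocyte, adipocyte, adrenal or pancreas was called by edgeR. In these 10 lists 13 of 115 tested markers reached an unadjusted p under 0.05, against 1364 of all 14936 genes tested, and 1 passed with DESeq2.

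The other genes that fell include regulators of growth and differentiation. Id2, an inhibitor of basic helix-loop-helix factors, had 482, 535, 646 and 455 CPM in sham mice and 1018, 976, 972 and 895 CPM in healthy mice (-0.87 ± 0.163, adjusted p = 0.00305). Spns3, of a family of lipid transporters, had 2.82, 2, 2.6 and 4.2 CPM in sham and 5.45, 7.59, 11.2 and 9.86 CPM in healthy mice (-1.55, adjusted p = 0.0044). Dleu7 had 13.8, 9.38, 11.8 and 5.18 CPM in sham and 35.2, 21.8, 19.2 and 20.9 CPM in healthy mice (-1.28, adjusted p = 0.00294). Hic1, a transcriptional repressor found in mesenchymal cells, had the lowest log2 fold change at -1.76 ± 0.395, with means of 1.94 ± 1.04 CPM in sham and 6.52 ± 2.48 CPM in healthy mice (SD, n = 4 each; adjusted p = 0.0173). It was not called without sham replicate 1 or 4 or healthy replicate 1 or 2 (adjusted p up to 0.124). Igf1, insulin-like growth factor 1, averaged 16.6 ± 2.31 CPM in sham and 30.4 ± 6.48 CPM in healthy mice (SD, n = 4 each; -0.87, adjusted p = 0.044). Also lower were Ccn4 (-1.41), Rab42 (-1.31), Bcl6b (-1.23), Arhgef39 (-1.21), Pdlim4 (-1.20), Marcks (-1.07), Phlda2 (-1.06), Clmp (-1.05), Npr3, the natriuretic peptide clearance receptor (-0.94), and Nrep (-0.94), with adjusted p between 0.0114 and 0.0419. All 24 genes had sham values below all healthy values, while of all genes tested 1013 (6.78%) had groups that did not overlap. The 24 were called on these same values, so their separation is not separate evidence. Igf1 and Id2 were named after their values were seen, and Igf1 was not among the 49 genes called whichever library was left out. Of the 15 with the lowest fold change only Ackr3, Dleu7 and Spns3 were called whichever library was left out, 4 were lost without 1 to 3 of the libraries and 8 without 4 or more. Bcl6b was lost without any 1 of the 8 (adjusted p 0.0572 to 0.14).

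**Figure D4:**
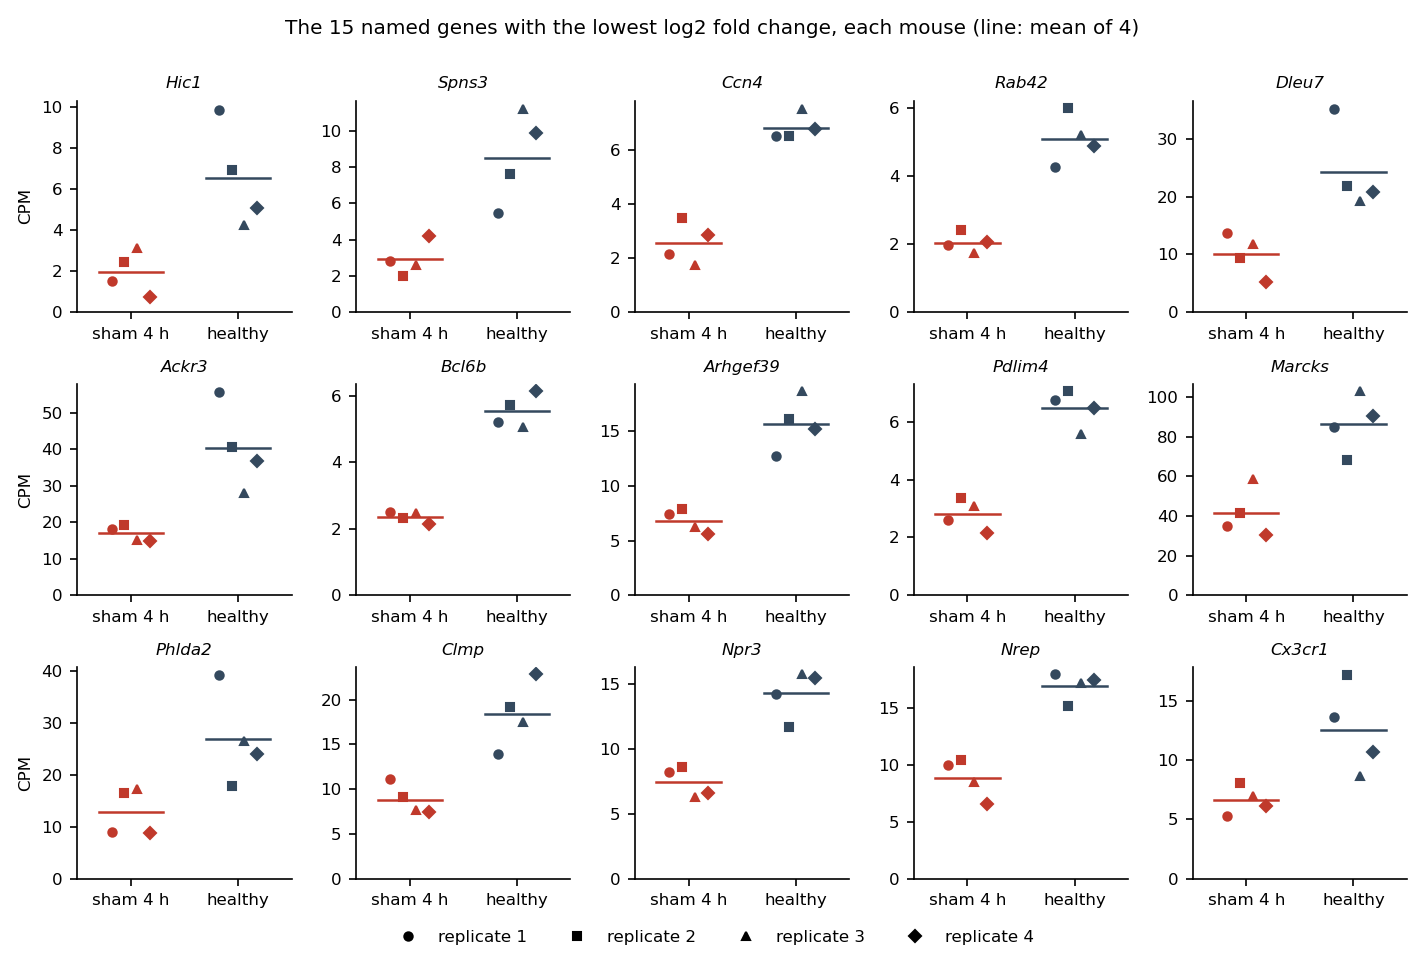
CPM of each mouse (y axis, linear, from 0) in sham 4 h (red, left) and healthy kidneys (dark blue, right) for the 15 named genes with the lowest log2 fold change, with a line at the mean of 4 mice and symbols for the replicate number. In every panel the highest sham mouse is below the lowest healthy mouse, which the rule that named these genes required.

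The later sham groups show how long the levels stayed apart from healthy mice. They share the healthy or the sham 4 h libraries with the comparison above, so their values are given side by side only. Fkbp5 averaged 39.4 ± 9.73 CPM at 24 h and 37.2 ± 13.4 CPM at 72 h after sham surgery (SD, n = 4 each), close to the 42.2 ± 7.99 CPM of healthy mice. The listed glucocorticoid targets had 1 member called higher and 1 lower in sham 24 h against healthy (median -0.06), 1 and 2 in sham 72 h against healthy (median -0.18), and 1 and 15 in sham 24 h against sham 4 h (median -1.69). Zbtb16 averaged 1.84 CPM at 24 h and 2.49 CPM at 72 h. Per1 was the member called higher at 24 h, at 15.8 CPM (1.42 over healthy, adjusted p = 0.0135), and averaged 6.75 CPM at 72 h. The member called higher at 72 h was Hif3a, with 0.536, 0, 0.349 and 0.645 CPM against 1 count in the 4 healthy libraries (adjusted p = 0.0318). At 24 h it had 0.241, 0.347, 0.303 and 0.256 CPM and was not called (adjusted p = 0.07). Each of these mice was above every healthy mouse, the highest of which had 0.133 CPM from 1 count. Hif3a at these later times thus rests on few counts. Dusp1 was lower than in healthy mice at 24 h (-0.78, adjusted p = 0.0344) and at 72 h (-0.99, adjusted p = 0.0116), and Mt2 at 72 h (-0.81, adjusted p = 0.0444). Ackr3 averaged 28.6 CPM at 24 h and 30 CPM at 72 h, and Cx3cr1 15.2 and 14.3 CPM. Outside the list, Sult1a1 averaged 12.7 CPM at 24 h (0.51 over the 8.91 CPM of healthy mice, adjusted p = 0.114). At 72 h it averaged 15.6 CPM and was called higher than in healthy mice (0.82, adjusted p = 0.0169). Upp2 averaged 25 CPM at 24 h and 16.8 CPM at 72 h and was called at neither time (adjusted p = 0.321 and 0.496).

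More genes in total were called at the later times: 958 (6.41%) in sham 24 h against healthy, 1260 (8.44%) in sham 72 h against healthy, and 2231 (14.9%) in sham 24 h against sham 4 h. The 16 whole-kidney libraries of 24 and 72 h detected 17604 to 19042 genes with 6.49 to 12.1% mitochondrial counts, against 18272 to 20474 genes and 10.2 to 14.3% in the 12 healthy and 4 h libraries, and the part of this in the later counts was not tested. Those against healthy were unstable, at 201 to 1736 for 24 h and 197 to 2020 for 72 h with 1 library left out, and moved by over 1.5 times for every library but healthy replicate 2. Sham 24 h against sham 4 h gave 1157 to 1370 without sham 4 h replicate 3 or 4 or sham 24 h replicate 3 or 4.

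**Figure D5:**
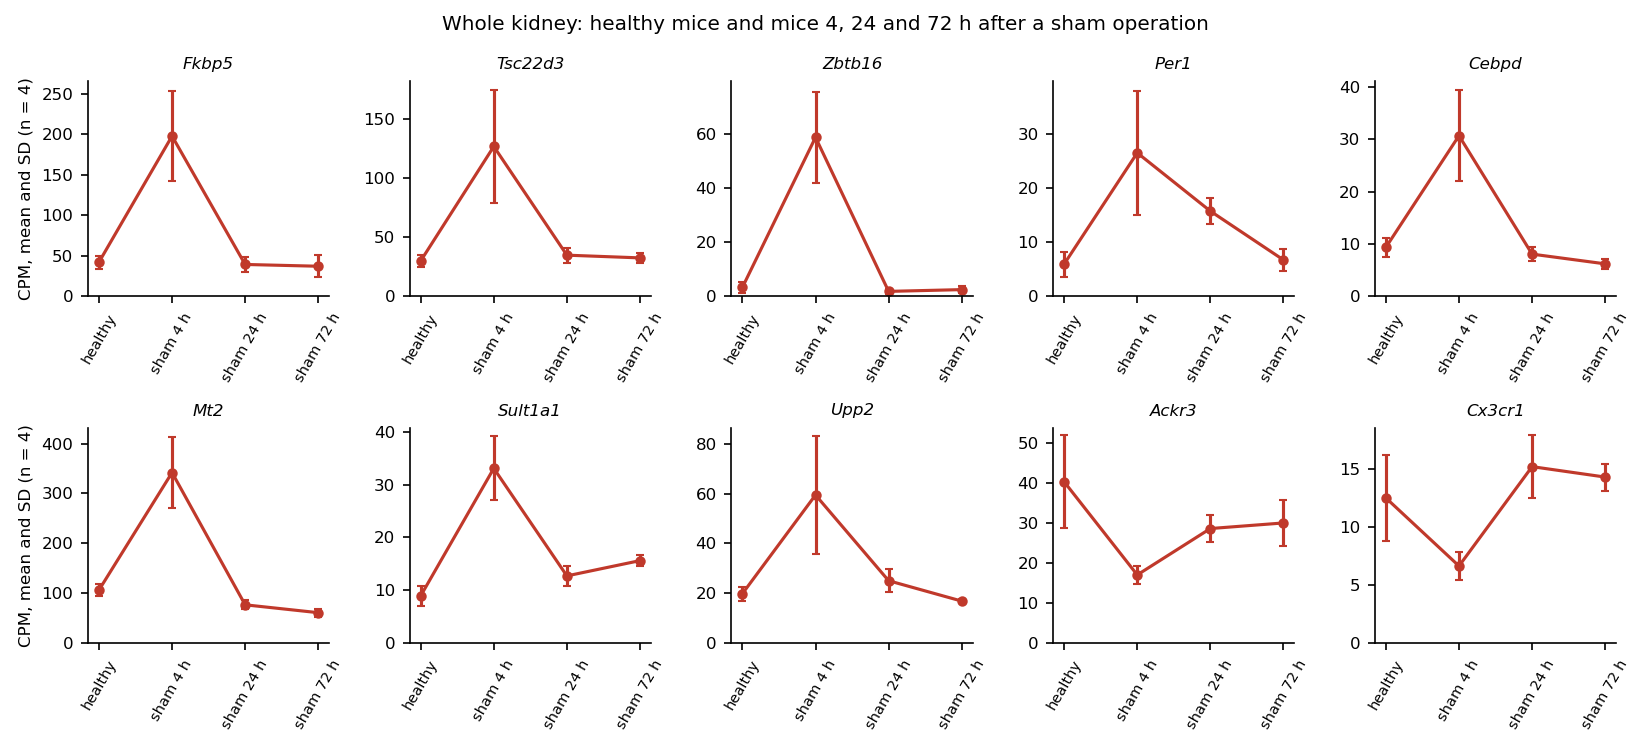
Mean CPM (y axis, linear, from 0) with SD bars over 4 mice in healthy kidneys and 4, 24 and 72 h after sham surgery (x axis) for 10 genes. Fkbp5, Tsc22d3, Zbtb16, Cebpd and Mt2 peak at 4 h and are near or below the healthy level at 24 h, while Ackr3 and Cx3cr1 have their lowest mean at 4 h. Sult1a1 also peaks at 4 h, with means above the healthy mean at 24 and 72 h.

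CLP mice at 4 h were set against the same sham mice, which shows how the sham levels stand beside those with sepsis. Of all genes 335 (2.24%) were called, or 206 to 214 without sham replicate 2 or 3 or CLP replicate 1. Of the glucocorticoid list 8 of 18 were called higher in CLP and none lower (median 0.98). Fkbp5 averaged 318 ± 39.3 CPM in CLP and 198 ± 55.9 CPM in sham mice (SD, n = 4 each; 0.68, adjusted p = 0.154), and Zbtb16 85.2 CPM in CLP and 58.8 CPM in sham mice (0.53, adjusted p = 0.782). These genes and Tsc22d3 (0.45, adjusted p = 0.432) were not called different between CLP and sham. Cebpd (149 CPM in CLP and 30.7 CPM in sham; 2.28, adjusted p = 8.22e-09), Mt2 (1723 CPM in CLP and 342 CPM in sham; 2.33, adjusted p = 2.39e-06) and Nfkbia (1.40, adjusted p = 1.37e-06) were higher in CLP. The NF-kB list had 15 of 18 members higher in CLP (median 1.69) and the interleukin-6 list 11 of 25 (median 1.78). Sult1a1 averaged 28.9 CPM in CLP and 33.1 CPM in sham mice (-0.20, adjusted p = 0.882). Cx3cr1 was lower again in CLP, at 1.96 CPM against 6.63 CPM in sham mice (-1.74, adjusted p = 1.09e-05), while Bcl6b was higher, at 10.9 CPM against 2.36 CPM (2.20, adjusted p = 1.21e-05).

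The same mice also gave microdissected vessel libraries, by the numbers in their titles, so these are not independent of the whole kidney. Values of 4 listed targets, chosen after their values were seen, are given with no test. Zbtb16 ranged over 39.5 to 140.2 CPM in sham and 1.05 to 36.4 CPM in healthy glomeruli, and over 59.1 to 388 CPM in sham and 0.38 to 9.85 CPM in healthy peritubular capillaries. Fkbp5 ranged over 192 to 643 CPM in sham and 7.9 to 36.2 CPM in healthy glomeruli, and over 285 to 518 CPM in sham and 20 to 54.3 CPM in healthy capillaries. The sham and healthy ranges of both genes were apart in these compartments, and overlapped in venules. In arterioles Zbtb16 was apart, but Fkbp5 overlapped (156 to 506 CPM in sham and 2.42 to 237 CPM in healthy mice). Of the 18 listed targets, 6 in arterioles, 6 in glomeruli, 4 in capillaries and 4 in venules had all sham values above all healthy values. In capillaries 1, Bcl6, had all sham values below. The share over all genes was not counted in the vessels, so these counts cannot show whether the list differed there from other genes. Tsc22d3 was apart in arterioles (200.3 to 500.4 CPM in sham and 2.86 to 68.6 CPM in healthy mice) but overlapped in capillaries (2.53 to 78.5 CPM in sham and 12.5 to 123 CPM in healthy mice). Fam107a, which did not rise in whole kidney, ranged over 139 to 275 CPM in sham and 0.547 to 15.3 CPM in healthy arterioles. In glomeruli Fam107a overlapped, at 6.68 to 30.6 CPM in sham and 1.59 to 68.2 CPM in healthy mice, and it also overlapped in capillaries and venules.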

How the data were processed

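QuantSeq libraries of total RNA were read from whole kidney of 28 mice in 7 groups of 4. The table the authors deposited holds raw counts per Ensembl gene, whole numbers for 34255 genes without normalisation. Per the submitters' processing notes the tools were STAR 2.7, featureCounts, HTSeq 0.13, SAMtools 1.9, FastQC 0.11.8 and MultiQC 1.7, and builds GRCm38.p6 and GRCm39 are both named. The build used, the counting program's settings and any removal of duplicates are not given in the sources used here. Groups come from the labels, which put healthy mice at 0 h where the table's header has 4 h.

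The 28 libraries were fitted together in R 4.3.3 with edgeR 4.0.16 (TMM, filterByExpr by group, robust two-sided quasi-likelihood F test). A gene was called when its p, adjusted by the Benjamini-Hochberg method over 14936 genes, was under 0.05. A fold change is the log2 value of the fit, with its SE from the F statistic. CPM uses TMM-scaled totals, and intervals cover counting error only. Gene positions come from GENCODE M21 (GRCm38), in which 34185 genes were found, and promoters from RefSeq (GRCm38.p6, chromosome 18 left out). Whether mice were housed or processed together is not given, so p-values measure the spread between these mice. That spread was estimated from all 28 whole-kidney libraries and not from the 8 compared alone. Replicate pairs of a group differed by more than counting noise (chi-square per degree of freedom 6.52 to 34.2), so none was merged. The procedure was tested on simulated data in which all genes had the same relative spread and mice varied independently. That test therefore does not cover mice of a group that shift together.

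Named genes are, among called genes with at least 5 CPM in the higher group and no overlap between groups, the 15 highest, the 15 lowest and the 10 with the smallest p, with members of the 38 gene lists (25 of responses, 13 of cell type markers). The members and lists were chosen with earlier results of these data known. Alternatives were other scaling, DESeq2 1.42.0, other filters, fewer libraries, a replicate block and leaving out each library. Some results are not reported here.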

Additional observations from a re-analysis of the deposited data

Results flagged for a closer look

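Over 62 genes, 124 groups of 4 mice were searched for a mouse far from the other 3, and 4 (3.23%) were marked, where chance marks about 1 in 20. All 4 are healthy mice. Dleu7 had 35.2 CPM in healthy replicate 1 and 19.2 to 21.8 CPM in the others. Il33 had 7.99 CPM in healthy replicate 2 and 5.22 to 5.51 CPM in the others. Fam107a had 30.7 CPM in healthy replicate 4 and 34.9 to 35 CPM in the others. Hif3a had 0.133 CPM, a single count, in healthy replicate 2 and 0 in the others.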

How the results depend on the processing

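Of the 140 genes called in sham 4 h against healthy, DESeq2 kept 137 among its 222 calls (166 higher, 56 lower), the 8 libraries alone 115 among 194 and the 12 libraries of healthy, sham 4 h and CLP 4 h mice 120 among 176. The other settings gave 135 to 187 calls and kept 131 to 136. Leaving out 1 library gave 59 to 141, and 49 of the 140 (45 higher, 4 lower) were called whichever library was left out. The glucocorticoid list had 14 to 16 members called under the other settings, of which Bcl6 was lower with DESeq2, the 8 and the 12 libraries, and 11 to 16 with 1 library left out. Sham 24 h against healthy had 1501 calls with DESeq2, 1541 with its 8 libraries alone, 1716 with a replicate block and 201 to 1736 with 1 library left out. Sham 72 h against healthy had 2142 with its 8 libraries alone, 2110 with a replicate block and 197 to 2020 with 1 left out. Sham 24 h against sham 4 h had 1157 to 2635, and CLP 4 h against sham 4 h 206 to 316, with 1 left out. The cause of these changes was not tested. The replicate numbers do not pair mice (same-numbered sham and healthy residuals correlated between -0.097 and 0.025), and the block gave 181 calls in sham 4 h against healthy. Among named genes, Arrdc2, Ddit4, Depp1, Igfbp1, Cx3cr1, Trp53inp1, Flt1, Phlda2 and Il1r2 lost their call under at least 2 of the other settings, and Cdkn1a (8 libraries, adjusted p = 0.0593), Ccn4 and Npr3 (12 libraries) and Marcks (no filter) under 1. Sgk1 gained one with DESeq2, the 8 libraries alone and the block, G6pc with DESeq2 and Pck1 with the 8 libraries. No result changed direction. With 4 mice a group, members under about 5 CPM rest on few counts.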
